A study of Mus musculus with 3 samples.

Results

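The SOCS family of cytokine feedback inhibitors was described in type 2 innate lymphoid cells (ILC2s) sorted from mouse lung. Its members were taken by gene symbol, Cish and Socs1 to Socs7, and all 8 were among the 16129 genes of the deposited expression table. The cells came from wild type mice treated with IL-33 in vivo, and RNA sequencing gave 3 libraries with the same labels, numbered replicates 1 to 3. The labels name no strain, age, sex, dose or timing of IL-33 or sort antibodies. They also do not say that each library is a different mouse, so replicate spread may be technical. With 1 group and no untreated cells, levels and differences between genes were measured, and no effect of IL-33.

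Cytokine receptors without kinase activity of their own rely on Janus kinases (JAKs), which phosphorylate the receptor and then the STAT transcription factors that carry the signal to the nucleus. SOCS proteins are feedback brakes on this route: many are themselves STAT target genes, they bind phosphorylated receptors or JAKs through an SH2 domain, and their C-terminal SOCS box recruits elongins and a cullin so that bound proteins are marked by ubiquitin. In ILC2s, IL-2, IL-7, IL-9 and TSLP signal through JAKs and STATs, whereas the IL-33 receptor signals through MyD88, and Cish is known to restrain ILC2s in mice.

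Cish and Socs3 are known STAT target genes and Socs1 is known to respond to interferon, so the sequence around their starts was read for the letters of those factors. Windows of 300 bases, 250 before and 50 after an annotated transcription start, were held in the RefSeq promoter table of GRCm38.p6 for Cish, Socs1, Socs3 and Socs4, and not for Socs2, Socs5, Socs6 or Socs7. The start used is the outermost one of the RefSeq gene for Cish, Socs1 and Socs4. For Socs3 it is base 117969366, which lies 970 bases inside the gene from its outermost start at 117970336. The first transcribed bases by these starts occur in a GENCODE M21 transcript of Cish and of Socs1, and not in one of Socs3 or Socs4. Each window was searched on both strands for TTCNNNGAA, the core letters bound by STAT factors, and for GAAANNGAAA, the repeated core of the interferon response element. The stretches with a match are given 5′ to 3′ on the gene's strand, with the matches in capitals, to show how the matches are placed in each gene.
Cish: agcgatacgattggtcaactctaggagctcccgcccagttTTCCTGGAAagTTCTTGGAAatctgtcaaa
Socs3: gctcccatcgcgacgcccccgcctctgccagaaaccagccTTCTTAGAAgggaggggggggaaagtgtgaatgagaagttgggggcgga
Socs1: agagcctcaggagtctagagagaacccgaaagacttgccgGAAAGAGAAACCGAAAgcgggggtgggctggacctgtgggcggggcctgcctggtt
The Cish stretch is chr9:107296619-107296688 on the plus strand, the Socs3 stretch chr11:117969472-117969560 on the minus strand and the Socs1 stretch chr16:10785564-10785659 on the minus strand.

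Cish held 2 matches to TTCNNNGAA, at positions 1 and 12 counted from the first transcribed base, with a pair of bases between them, so both lie in transcribed sequence by this annotation. A match in the window was found for 8.30% of the 32851 windows in the table, and 2 or more matches for 0.457%. Socs3 held 1 such match at position -154 from the start in the table, within the span of the RefSeq gene, and Socs1 and Socs4 had none in this window. Socs1 held 2 overlapping matches to GAAANNGAAA, at positions -83 and -77. At least 1 match to that motif was found in 3.44% of windows and 2 or more in 0.225%, while Cish, Socs3 and Socs4 had none in their windows. These matches describe the sequence and do not show that a factor was bound.

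The libraries held 19948056, 19883728 and 19976129 estimated reads in replicates 1, 2 and 3. Levels are given as TPM, a transcript's share of the library after division by its length, so that long and short genes of 1 library can be set side by side. Detection meant a level of at least 1 TPM in all 3 libraries, which 67.3% of listed genes reached. The label of the cells was checked against their markers: all 10 fixed ILC2 markers, among them Gata3, Il1rl1 and Il7r, had a mean of at least 100 TPM. Of 22 markers of other lung and blood cells 10 were detected, while Cd4, Cdh5 and Col1a1 stayed below 1 TPM in each library. Of the 4 T cell markers 2 were detected, Cd3e (mean 7.19 TPM) and Cd3d (1.86 TPM). Of the 2 endothelial markers 1 was detected, Pecam1, at a mean of 79.8 TPM. Epithelial markers were detected in 2 of 3 cases, Scgb1a1 (15.3 TPM) and Sftpc (9.40 TPM), and macrophage markers in 5 of 6. Macrophage markers were the highest of these lists and differed between libraries, with summed levels of 382, 375 and 524 TPM in replicates 1, 2 and 3, of which Chil3 made up most.

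All 8 SOCS family members were detected, and 1 of them stood far above the rest. All 8 also had at least 5 TPM in every library, as did 57.6% of listed genes. Cish had 236 TPM in replicates 1 and 2 and 258 TPM in replicate 3, a mean of 243 ± 12.5 (SD, n = 3). This placed it at rank 553 among all listed genes, the 96.6th percentile, and it was the only member above 100 TPM, a level reached by 10.3% of listed genes. It supplied 71.5 ± 1.09% of the family's summed TPM, which was 329, 336 and 356 in replicates 1, 2 and 3. The other 7 members together had 92.7, 99.9 and 98.3 TPM. In a bulk sort, more cells that express a gene and more RNA per cell cannot be told apart, so these levels are averages over the sorted cells.

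**Figure D1:**
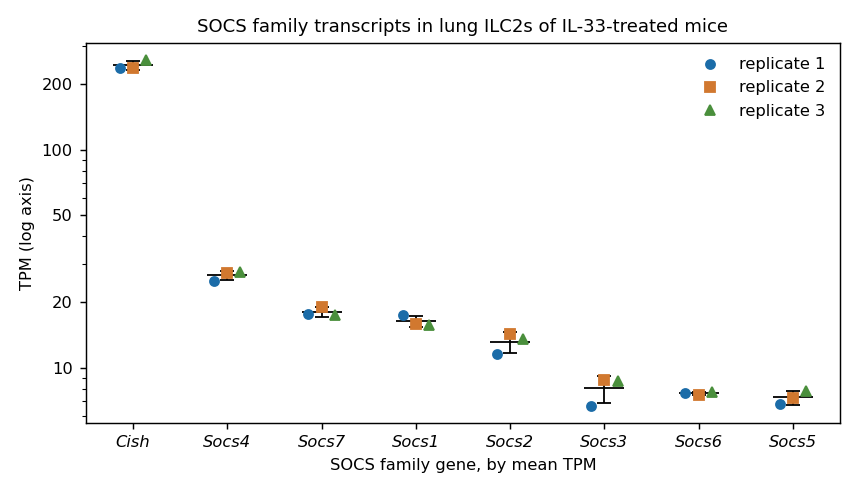
TPM (log axis) of each SOCS family gene in the 3 libraries, with points for replicates 1 to 3 and a bar and whiskers for the mean ± SD. Cish lies at 236 to 258 TPM in all 3 libraries and the other 7 genes between 6.70 and 27.4 TPM.

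Cish and Socs2 are close relatives, and both are known targets of STAT5. CIS, the product of Cish (Entrez gene 12700, chromosome 9, 107296659 to 107302784), binds receptors such as the IL-2 receptor beta chain and limits STAT5 activation. Socs2 (216233, chromosome 10, 95383903 to 95417321) restrains growth hormone signalling. Its levels were 11.5, 14.3 and 13.5 TPM, a mean of 13.1 ± 1.44. Cish was 20.5, 16.5 and 19.0 times as high as Socs2 in replicates 1, 2 and 3. On the log2(TPM + 1) scale, Cish exceeded Socs2 by 4.12 ± 0.148, or 17.4-fold on the TPM + 1 scale. The direction was the same in 3 of 3 libraries and the difference many times its SD. An exact permutation test that flips the signs of the library differences (two-sided) gave p = 0.25, the smallest that 3 libraries allow, for this and each of the 5 differences between members that were set, and Benjamini-Hochberg adjustment over the 5 left 0.25.

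Socs1 and Socs3 encode the members with a kinase inhibitory region, which blocks JAK catalytic activity directly. Socs1 (12703, chromosome 16, 10783808 to 10785536), a strong inhibitor of interferon and IL-4 signalling, had 17.4, 15.8 and 15.7 TPM, a mean of 16.3 ± 0.956. Socs3 (12702, chromosome 11, 117966079 to 117970336), which binds gp130 and limits IL-6 signalling, had 6.70, 8.74 and 8.67 TPM, a mean of 8.04 ± 1.16. The groups of values did not overlap, and Socs1 exceeded Socs3 by 0.95 ± 0.271 in log2(TPM + 1), in each of 3 libraries (exact sign-flip p = 0.25). The direction rested on the length used by the authors. Per kilobase of the longest coding transcript in GENCODE M21 the mean difference was -0.33. Its sign there was not the same in all 3 libraries (exact sign-flip p = 0.5). That scale divides reads counted over a shorter Socs1 model, 1292 bases by the reads per TPM, by 2908 bases. It thus lowers Socs1 by construction and cannot decide the direction. In CPM, reads scaled to library depth and not to length, Socs1 averaged 9.41 ± 0.662 and Socs3 10.4 ± 1.47.

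Socs4 to Socs7 encode the members with longer N-terminal regions, which are less tied to cytokine induction. Socs4 (67296, chromosome 14, 47276920 to 47296102), known from work on the epidermal growth factor receptor, had 25.1, 27.2 and 27.4 TPM. Its relative Socs5 (56468, chromosome 17, 87107278 to 87137647), which also acts on that receptor, had 6.78, 7.25 and 7.85 TPM, and all of these values lay below those of Socs4. Socs4 exceeded Socs5 by 1.73 ± 0.046 on the log2(TPM + 1) scale. Per GENCODE kilobase this difference was 0.15 on the log2 scale. Reads of Socs4 also came from a model shorter than the GENCODE transcript, so that scale lowers Socs4 by construction.

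Socs6 (54607, chromosome 18, 88865169 to 88894364), known to bind the receptor KIT, was the steadiest member, with 7.61, 7.50 and 7.75 TPM. Socs7 (192157, chromosome 11, 97362292 to 97398542), whose product binds the adaptor NCK, had 17.6, 19.1 and 17.4 TPM. The log2(TPM + 1) of Socs6 minus that of Socs7 was -1.14 ± 0.088, negative in 3 of 3 libraries. Among the less induced members, Socs4 and Socs7 were thus the higher pair in TPM and Socs5 and Socs6 the lower one.

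In mean log2(TPM + 1), Cish and Socs1 to Socs3 lay 0.96 ± 0.031 above Socs4 to Socs7, in 3 of 3 libraries (exact sign-flip p = 0.25). The direction rested on Cish and on the division by length. In CPM the difference was -0.051. Without Cish, an alternative chosen after seeing the data, the difference was -0.10, and the summed levels were 35.6, 38.8 and 37.9 TPM for Socs1 to Socs3, against 57.1, 61.0 and 60.4 TPM for Socs4 to Socs7.

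In the order of mean TPM, Cish came first, followed by Socs4, Socs7, Socs1, Socs2, Socs3, Socs6 and Socs5. Of the 7 pairs of neighbours, 4 had ranges that did not overlap: Cish and Socs4, Socs4 and Socs7, Socs1 and Socs2, and Socs2 and Socs3. Socs7 and Socs1 overlapped and differed by 0.13 ± 0.120 on the log2(TPM + 1) scale. The 3 lowest genes could not be ordered, since Socs3 and Socs6 differed by 0.06 ± 0.193 and Socs6 and Socs5 by 0.06 ± 0.082, each higher in 2 of 3 libraries.

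The transcript length behind each TPM could be read from the files, because reads divided by TPM rise in proportion to it. Over 570 genes with a single, coding transcript in GENCODE M21 and at least 5 TPM, a line fitted to reads per TPM returned the annotated length with a median absolute error of 2.87%, and 84.7% of genes fell within 25%. For 6 members the implied length was close to the longest GENCODE coding transcript: the ratio of the implied to the annotated length was 1.08 for Cish, 1.09 for Socs3, 1.03 for Socs5 and 1.02 for Socs7, with an implied length of 2222 bases for Socs2 against 2222 annotated, and of 6047 bases for Socs6 against 6036 annotated. Socs1 and Socs4 departed from it. Socs1 had an implied length of 1292 bases against 2908 in GENCODE, while the whole RefSeq gene spans 1729 bases. Socs4 had one of 2192 bases against 6877. The sources used here do not name the authors' annotation, and the ends of these transcripts in ILC2s were not measured.

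**Figure D2:**
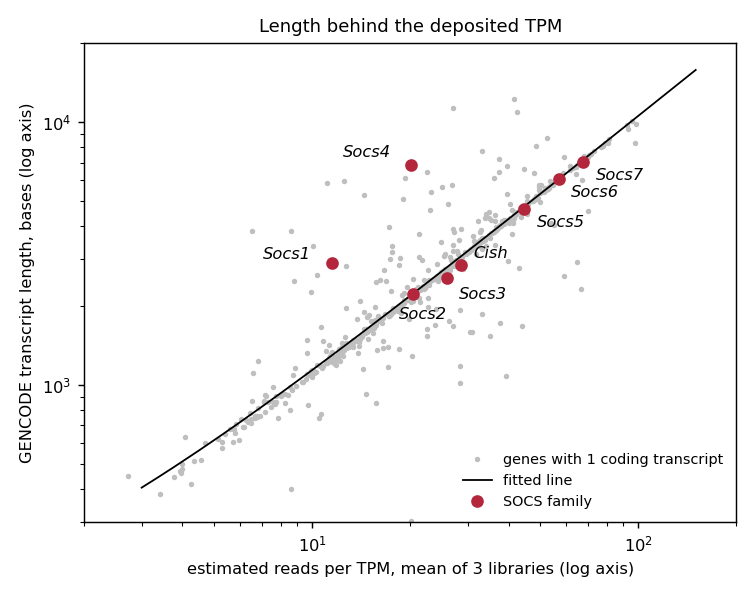
GENCODE M21 transcript length against estimated reads per TPM (both log axes) for 570 genes with 1 coding transcript (grey), with the fitted line, and for the SOCS family (red, longest coding transcript). Socs1 and Socs4 lie above the line, at 2908 and 6877 bases, and the other 6 members lie close to it.

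The order below Cish therefore depended on the length. In reads, Cish averaged 6935 ± 320 per library, followed by Socs7 (1218 ± 59.3), Socs4 (534 ± 21.7), Socs6 (434 ± 5.53), Socs5 (326 ± 14.3), Socs2 (267 ± 28.8), Socs3 (208 ± 29.1) and Socs1 (188 ± 13.3). Socs1, the fourth member in TPM, thus had the fewest reads on average, though in replicate 1 Socs3 had fewer, 174 against 203. The 203, 179 and 181 reads of Socs1 carry exact Poisson 95% intervals from 154 to 233 over the 3 libraries, which cover counting error only. Per kilobase of the longest GENCODE coding transcript, an alternative chosen after seeing the data, Cish had 2433 ± 112 reads, Socs7 174 ± 8.46, Socs2 120.3 ± 13.0, Socs3 81.4 ± 11.4, Socs4 77.6 ± 3.16, Socs6 72.0 ± 0.916, Socs5 70.2 ± 3.07 and Socs1 64.5 ± 4.58. On that scale Socs4 stood at 3.19% of Cish, against 10.9% in TPM, and Socs1 at 2.65%, against 6.71% in TPM. Ranges overlapped there for Socs3 and Socs4, Socs6 and Socs5, and Socs5 and Socs1. This scale divides reads counted over the authors' models by GENCODE's length, so reads outside those models are missing from it. Cish was highest and at least 5 times the next member on each of the 3 scales.

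**Figure D3:**
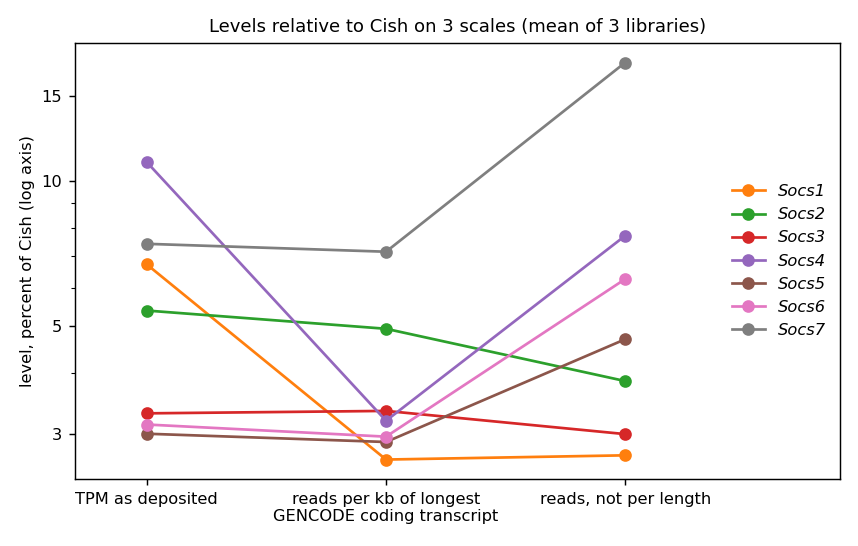
Mean level of each SOCS family gene as a percentage of Cish (log axis) in TPM, in reads per kilobase of the longest GENCODE coding transcript and in reads. Socs4 lies at 10.9% of Cish in TPM and 3.19% per GENCODE kilobase, and Socs7 is the highest of the 7 genes per GENCODE kilobase and in reads.

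Shared sequence and overlapping genes bear on some of these reads. Of the 50-base words of the longest Cish transcript, 15.8% also occur, on either strand, in Gm17040, a transcribed pseudogene, or Gm17041, an antisense gene. Both lie across Cish on the opposite strand, and the sources used here do not state whether counting used the strand, so their reads and those of Cish cannot be told apart there. Socs2 shared 18.4% of its words and Socs6 11.7% with 2 other genes each, none of them in the deposited table. Socs4 shared 0.308%, and Socs1, Socs3, Socs5 and Socs7 shared none.

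For 7 of 8 members the SD of log2(TPM + 1) was above the median of the 200 genes nearest in level, which held for 49.7% of detected genes. Several were only slightly above it, Socs7 at 1.02, Socs5 at 1.09, Socs1 at 1.12 and Socs4 at 1.23 times, while Cish was at 1.71 times. Only Socs3 and Socs2 exceeded 2 times that median, at 2.22 and 2.07 times, as did 9.11% of detected genes. Both were lowest in replicate 1, where Socs3 was at 0.770 and Socs2 at 0.827 of its mean in replicates 2 and 3. Socs1 went the other way and was 1.10 times as high in replicate 1. The Socs3 counts were 174, 225 and 224 reads, with Poisson 95% intervals of 149 to 202, 197 to 256 and 196 to 255, which overlap narrowly.

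Cish was the only member whose Poisson intervals did not overlap between all libraries. It also had the most reads, a mean of 6935 against 1218 for Socs7, the next member, and so the narrowest intervals relative to its level. The SD of its TPM was 5.16% of the mean, between 1.64% for Socs6 and 14.4% for Socs3. The share of all listed genes without such overlap was not measured, so the lack of overlap does not set Cish apart. The TPM of Cish in replicate 3 was 1.09 times the mean of the other libraries, with 7301 reads against 6799 and 6707. The summed macrophage markers were also highest in replicate 3, at 1.38 times the mean of the others, and their part in the Cish difference was not tested. Socs6 had the smallest spread, at 0.242 times the median of genes of like level. Replicate 1 was the lowest library for 5 of 8 members, as it was for 44.3% of detected genes.

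**Figure D4:**
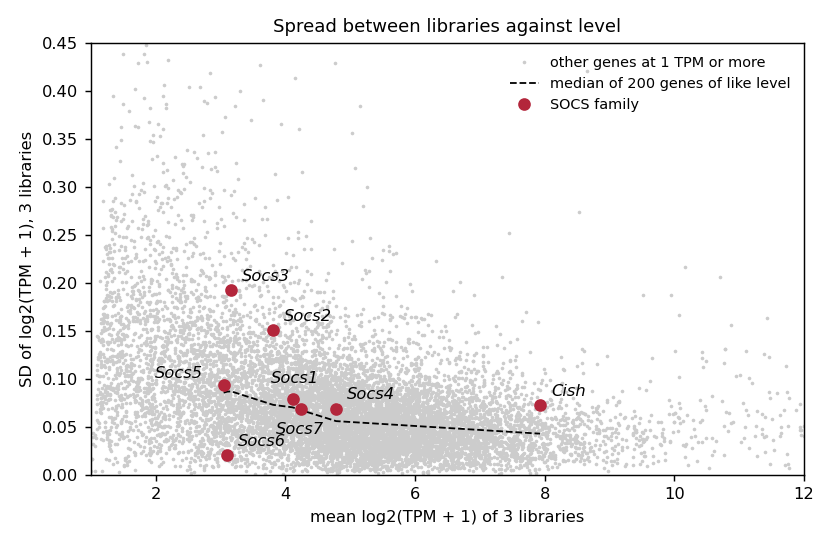
SD of log2(TPM + 1) over the 3 libraries against its mean, for genes at 1 TPM or more in each library (grey, genes beyond the axes not drawn) and the SOCS family (red). The dashed line joins, at the members' levels, the median SD of the 200 genes of like level. Socs3 and Socs2 lie at more than 2 times that median and Socs6 lies below it.

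The genes closest to the 3 highest members in level over the 3 libraries were found by Euclidean distance in log2(TPM + 1) among 16121 other genes. They were Rpn2 (243 ± 9.04 TPM, distance 0.036) and Nucb1 (240 ± 10.9, 0.038) for Cish, Ncoa1 (26.45 ± 1.14, 0.016) and Senp1 (26.5 ± 1.23, 0.030) for Socs4, and Cenpn (17.9 ± 0.887, 0.021) and Ahr (18.2 ± 0.768, 0.029) for Socs7. With 3 libraries of 1 group, this distance reflects level almost alone.

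The machinery that SOCS boxes recruit was present in full, and at higher levels than most members. All 9 listed partners were detected, beside 67.3% of all listed genes. Their median was 83.8 TPM, against 14.7 TPM for the SOCS family and 11.2 TPM for all listed genes. Elongin B (Elob, 271 ± 6.28 TPM) and elongin C (Eloc, 83.8 ± 1.14) bridge the SOCS box to the cullin Cul5 (23.2 ± 0.649) and its RING partner Rnf7 (99.1 ± 1.99). Cul5 was thus the lowest partner, close to Socs4 and below Cish in each library. Of 22 other listed SOCS box genes 15 were detected, close to the share of all listed genes. They were led by Spsb3 (112 ± 2.21), Wsb1 (91.9 ± 2.18) and Wsb2 (58.5 ± 2.27), and Cish was higher than each of them.

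Kinases and receptors on which the family acts were detected in part. Jak1 (302 ± 5.51 TPM), Jak3 (186 ± 9.57) and Jak2 (137 ± 3.93) were above 100 TPM and Tyk2 (68.1 ± 1.18) below. Cish lay between Jak1 and Jak3, while all other members, among them Socs1 and Socs3 with the kinase inhibitory region, lay below each JAK gene. All 4 JAK genes were detected, as were 10 of 17 receptors that use STAT5 or STAT6, beside 67.3% of listed genes. The receptors included Il2rg (795 ± 34.5), Il7r (659 ± 19.7) and Il2rb (363 ± 5.22), a chain that CIS binds. Of receptors that use STAT3, 7 of 13 were detected, with Il27ra (212 ± 7.16) highest. The gp130 chain Il6st, to which SOCS3 binds, was at 4.85 ± 0.006 and its partner Il6ra at 0.223 ± 0.142, below 1 TPM in all libraries. The growth hormone receptor gene Ghr, whose signal SOCS2 restrains, was at 0.053 ± 0.046. Ifngr1, of the interferon receptor that SOCS1 restrains, was at 231 ± 0.955, and 5 of 7 interferon and IL-12 receptor genes were detected.

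All 7 STAT genes, some of them known activators of family members, were detected. Stat5a (53.3 ± 1.52 TPM) and Stat5b (103 ± 1.51), the activators of Cish and Socs2, were each below Cish and above Socs2 in every library. Other known STAT5 targets were detected in 8 of 8 cases, beside 67.3% of all listed genes, with a median of 54.9 TPM. Pim1 (185 ± 11.0) and Ccnd2 (140 ± 8.31) led them, so that Cish was higher than each of the 8 and Socs2 lower than each. Stat3, an activator of Socs3, was at 145 ± 2.91. Of 13 listed interferon targets 10 were detected, with a median of 11.0 TPM against 11.2 TPM for all listed genes.

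Other brakes on the pathway were detected in 14 of 14 cases, beside 67.3% of all listed genes, with a median of 42.8 TPM. The phosphatase genes Ptprc (485 ± 15.8), which encodes CD45, and Ptpn2 (102 ± 3.96), a JAK and STAT phosphatase, and the STAT ubiquitin ligase Pdlim2 (85.2 ± 2.71) were highest. Cish was above all of these inhibitors except Ptprc, whereas Socs1 to Socs7 were each below the phosphatases Ptpn1, Ptpn2, Ptpn6 and Ptpn11. Not all inhibitors lay above these members. In mean TPM, Pias1 and Pias3 were below Socs4, and Sh2b3 (11.8 ± 0.371) was below Socs1, Socs2, Socs4 and Socs7. Usp18, which acts on the interferon receptor, was lowest at 5.66 ± 0.14, below every family member. Of 13 listed cytokine genes 12 were detected, beside the same 67.3%, with Il13 and Il5 the highest and Il7 below 1 TPM in all libraries.

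**Figure D5:**
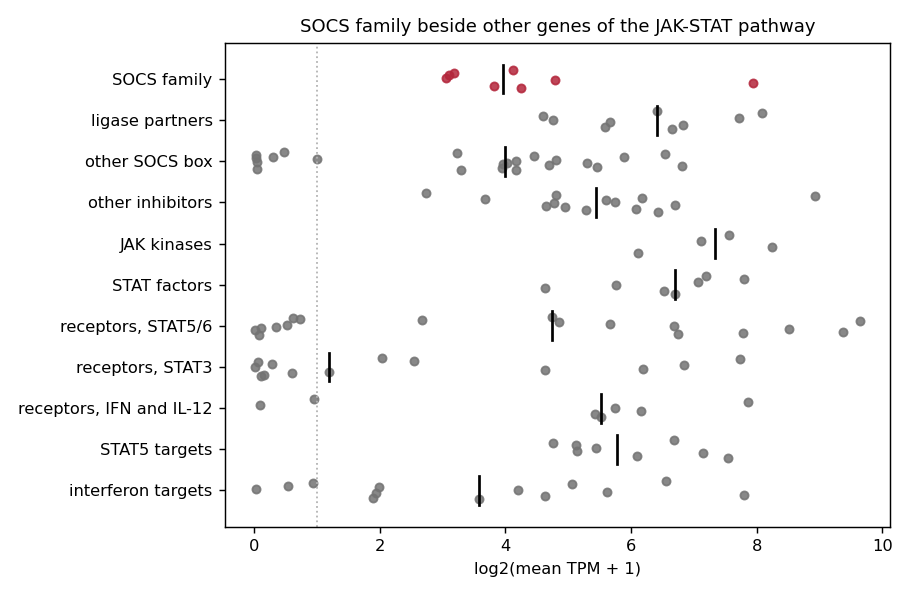
Mean level, as log2(mean TPM + 1) over 3 libraries, of each listed gene in the SOCS family (red) and in 10 other lists of the JAK-STAT pathway (grey). Black bars mark each list's median and the dotted line marks 1 TPM. The median of the SOCS family is 14.7 TPM, with Cish at 243 TPM apart from the other members.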

How the data were processed

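RNA from sorted lung ILC2s was sequenced in 3 libraries of 1 group. Bowtie2, RSEM 1.3.1 and the build GRCm38.p6 are named, without order or settings, per the submitters' processing notes. Per the file headers, the authors deposited TPM, FPKM, read counts and normalised read counts. The read counts that the authors deposited hold fractions, the form in which RSEM writes expected counts. The deposited normalised read counts, a depth-scaled signal, were not used for any result. The deposited FPKM was proportional to TPM within 0.145% for genes over 10 TPM in each library.

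Levels are the authors' TPM, and log values are log2(TPM + 1), a scale on which the ratios of low genes are understated. Differences between members were taken within each library, and their mean and SD over 3 libraries are given with an exact sign-flip permutation test (two-sided). Members and gene lists were chosen with earlier results of these data known. Named genes are the 8 members, up to 5 highest and 3 lowest genes of each list, and the 2 nearest genes of the 3 highest members, and others were chosen after their values were seen. Some genes that the rule names are left out of the text. Exact Poisson intervals are for rounded expected counts. Pairs of libraries differed by 2.48 to 3.47 times the counting noise (chi-square per degree of freedom), so none was a copy of another. Lengths come from GENCODE M21, an annotation of the same build, and promoter windows and coordinates from RefSeq. The programs were tested on simulated data. Python 3.11.15, pandas 2.3.3 and scipy 1.17.1 were used. Alternatives were a pseudocount of 0.1, FPKM, CPM, depth-scaled expected counts, detection at 0.5 and 5 TPM, detected genes only, and leaving out each library.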

Additional observations from a re-analysis of the deposited data

How the results depend on the processing

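No paired analysis was possible because no second group shares replicate numbers with these libraries, and differences between genes were taken within each library. Of 80 recomputed values, 68 kept their sign, moved by less than their SD or, for counts, stayed within 1.5 times, 4 changed sign and 8 moved. Many of the 68 could not have come out otherwise, so this count does not measure robustness. Leaving out 1 of 3 libraries cannot move a mean level by as much as its SD. Members detected at 1 TPM in all 3 libraries must also be detected at 0.5 TPM or with a library left out. In CPM, which does not divide by length, Cish and Socs1 to Socs3 minus Socs4 to Socs7 was -0.051. Socs1 minus Socs3 was -0.13 in CPM, with Socs3 higher in 2 of 3 libraries. Per kilobase of the longest GENCODE coding transcript, which does divide by length, Socs1 minus Socs3 was -0.33. This sign too was not the same in all 3 libraries. That scale lowers Socs1 by construction, since its reads were counted over a shorter model, so it gives no separate evidence on the sign. Without Cish the group difference was -0.10. Among detected genes only, which leaves out the lower genes by construction, the percentiles were 94.9 for Cish, 34.3 for Socs1, 28.8 for Socs2, 20.2 for Socs3, 48.2 for Socs4, 18.7 for Socs5, 19.4 for Socs6 and 36.8 for Socs7. Against all listed genes they were 96.6, 55.8, 52.1, 46.3, 65.1, 45.3, 45.8 and 57.5 in the same order. The pairs of neighbours without overlap were 6 in CPM, where the order also changed, and 4 to 6 with a library left out, against 4. With a pseudocount of 0.1, FPKM, or any library left out, the 5 differences kept their sign. Leaving out a library could not change it, since each difference had the same sign in 3 of 3 libraries. Nor could the pseudocount or FPKM for the differences between single genes. All 8 members remained detected at 0.5 and 5 TPM and at 1 FPKM. The lowest counts, near 200 reads for Socs1 and Socs3, limit those genes to differences above their Poisson intervals.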
